A study of Caenorhabditis elegans with 2 samples.

Results

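The nuclear genes of the mitochondrial respiratory chain were examined for binding by the AT-hook protein ATTF-6 in Caenorhabditis elegans, a nematode. The set holds the protein-coding genes whose symbols start with nuo-, nduf-, sdha-, sdhb-, ucr-, cyc-, cox- or atp-, together with isp-1, in Ensembl release 115. There were 44 such genes among 19973 protein-coding genes on the 6 chromosomes. A gene was called bound when the summit of a region in the conservative joint peak list lay between 1000 bp upstream and 200 bp downstream of any of its annotated transcript starts. By that rule 10 of the 44 genes were bound, or 22.7%, where 856 of all 19973 protein-coding genes were, or 4.29%.

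The respiratory chain passes electrons from NADH and succinate to oxygen through complexes I to IV of the inner mitochondrial membrane. Ubiquinone and cytochrome c carry electrons between the complexes. The proton gradient that builds up drives complex V, the ATP synthase. Most subunits are encoded in the nucleus and imported, and assembly factors that are not part of the finished complexes help to build them. AT-hook proteins carry a short motif that contacts the minor groove of DNA, with a known preference for runs of A and T.

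ATTF-6 was mapped by ChIP-seq, in which DNA cross-linked to a protein is precipitated with an antibody and sequenced. The 2 samples were biological replicates of 1 group, whole young adult worms of strain RW12231 aged 64 hours, which carry TY1, EGFP and 3xFLAG tags inserted by CRISPR at attf-6. The worms had been bleached and starved to synchronise them as L1 larvae, and sonicated chromatin was precipitated with an antibody against GFP. The group had no untagged or mutant worms beside it, a named control experiment was not analysed here, and in whole worms a region cannot be assigned to a tissue.

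The conservative joint list held 2134 regions, the other joint list 2269, the list of replicate 1 alone 1219 and that of replicate 2 alone 1110. Longer ranked lists hold regions of any reproducibility. Each region carries a signal, the deposited strength of the region on a scale that is not stated. Each also carries an irreproducible discovery rate (IDR), which is low where a region ranks both high and alike in 2 sets of reads. The highest IDR of a region in the conservative list was 0.01. Read totals are not in the sources used here, so depth is unknown and no interval for depth can be given.

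Stretches around 5 of the bound sites show what the sequence is like where ATTF-6 was found, and are printed 5′ to 3′ on the strand of the gene, read from the WBcel235 assembly, the same as ce11. Capitals mark the tetramer GCGC, which reads the same on both strands. It was chosen after the values had been seen. Parts of 5′ UTRs were trimmed. The stretch for nduf-11 is chrII:11345713-11345912, at 292 to 93 bp upstream of its start, for nduf-2.2 chrIII:6464319-6464518 and for cyc-2.1 chrIV:4749013-4749093, the 81 bp before its start. That for cox-5A is chrIII:12905110-12905309 and for cox-6B chrIII:2785949-2786131.
nduf-11: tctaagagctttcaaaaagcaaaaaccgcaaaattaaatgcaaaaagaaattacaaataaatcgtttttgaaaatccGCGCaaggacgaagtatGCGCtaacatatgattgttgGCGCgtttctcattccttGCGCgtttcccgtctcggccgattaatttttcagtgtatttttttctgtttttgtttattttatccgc
nduf-2.2: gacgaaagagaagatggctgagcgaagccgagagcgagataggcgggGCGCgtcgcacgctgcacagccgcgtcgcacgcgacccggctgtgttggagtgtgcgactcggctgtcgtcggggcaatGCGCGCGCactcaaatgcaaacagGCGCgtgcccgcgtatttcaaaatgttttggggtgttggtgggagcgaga
cyc-2.1: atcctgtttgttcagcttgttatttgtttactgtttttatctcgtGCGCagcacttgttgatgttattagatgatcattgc
cox-5A: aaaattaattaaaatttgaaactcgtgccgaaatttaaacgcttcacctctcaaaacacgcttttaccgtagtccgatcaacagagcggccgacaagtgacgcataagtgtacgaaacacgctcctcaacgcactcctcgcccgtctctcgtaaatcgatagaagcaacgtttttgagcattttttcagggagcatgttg
cox-6B: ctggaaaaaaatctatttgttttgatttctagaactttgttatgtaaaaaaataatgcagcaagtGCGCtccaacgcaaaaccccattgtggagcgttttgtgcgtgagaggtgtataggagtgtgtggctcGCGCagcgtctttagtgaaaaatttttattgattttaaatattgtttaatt
The nduf-2.2 stretch holds 5 copies of GCGC and 37.0% A+T, and that of nduf-11 4 copies and 64.0% A+T. The stretch of cox-5A holds none. The summit lies at base 101 of the nduf-2.2 and cox-5A stretches, base 100 of that of nduf-11 and base 84 of that of cox-6B, and outside the trimmed stretch of cyc-2.1.

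All but 1 of the 10 bound genes belong to complexes I, IV and V, the exception being cyc-2.1. Complex IV subunits had 4 of 7 genes bound, or 57.1%, namely cox-5A, cox-5B, cox-6A and cox-6B. Complex V had 2 of 5, or 40%, and cytochrome c 1 of 2, or 50%. Complex I had 3 of 12, or 25%. None of the 3 complex II genes, the 7 complex III genes or the 8 genes that build complex IV was bound, though sdhd-1, a complex II gene outside the symbol rule, was. At the background share of 4.29%, fewer than 1 gene would be called in sets of 3, 7 or 8, so these counts of 0 are not read as a difference from other genes.

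**Figure D1:**
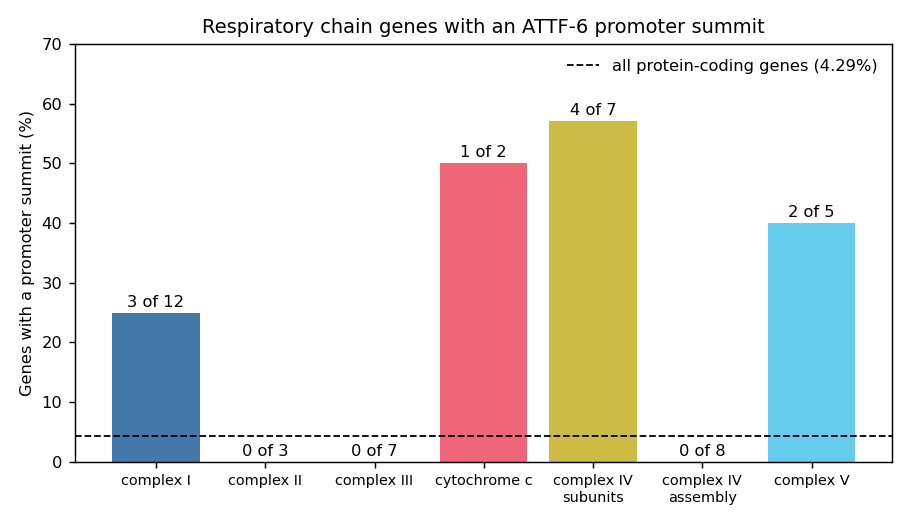
Share of genes with an ATTF-6 summit in the promoter, in percent, for each complex, with the counts above the bars. The dashed line is the 4.29% of all protein-coding genes. Complex IV subunits reach 57.1%, and complexes II and III and the complex IV assembly genes are at 0.

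The genes that build complex IV include cox-10, a heme farnesyltransferase, and cox-17, which carries copper. The difference between 4 of 7 subunits and 0 of 8 such genes was not tested, since the members were chosen with earlier results known. In a list of 13 further subunits that leaves out the complex I genes with newer symbols, 2 were bound (15.4%), and among other assembly factors 2 of 15 (13.3%).

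The strongest site of the set was at cyc-2.1, which encodes a cytochrome c, the mobile carrier between complexes III and IV. The region at chrIV:4748882-4749095 had its summit at 18 bp downstream of the start, in the 5′ UTR. Its joint signal was 144.0, rank 354 of 2134, with 71.7 in replicate 1 and 77.0 in replicate 2. The region stood in the thresholded list of each replicate. The replicates' lists are not stated to share a scale with each other or with the joint list, so signals are set side by side here and below as a description. The other cytochrome c gene, cyc-2.2, had no summit in its promoter in the joint ranked list. The start of rpl-20, a ribosomal protein gene on the same strand, lay 784 bp upstream of the summit.

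Complex IV, cytochrome c oxidase, is the last step, at which electrons reach oxygen. The cox-5A summit lay 281 bp upstream of its start, at chrIII:12905048-12905371, with a joint signal of 121.6 and replicate signals of 66.5 and 54.4. That of cox-5B lay 5 bp inside its 5′ UTR, at chrI:9788568-9788891, with a joint signal of 94.4 and replicate signals of 54.0 and 50.1. That of cox-6A lay 796 bp upstream, with 101.2 and, in the replicates, 47.6 and 47.5. These 3 subunits were the best reproduced besides cyc-2.1, and all 4 stood in the list of each replicate. The cox-6A summit lay 30 bp from a short noncoding RNA gene, and no protein-coding gene started nearer than cox-6A.

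The remaining bound subunit, cox-6B, was weaker. Its joint signal was 57.2, rank 1827, with 27.8 in replicate 1 and 36.6 in replicate 2. Neither replicate's own thresholded list held it, and its IDR within replicate 1 was 0.732 and within replicate 2 0.0105. The summit, at chrIII:2785870-2786193, lay in an intron of the long cox-6B transcript, 170 bp before the later start, and nearer, at 84 bp, to Y71H2AM.20. The nduc-2 gene, named as a complex I subunit, started 820 bp away. The other sites in neither replicate's list also had high IDRs within replicates 1 and 2. They were 0.109 and 0.749 at nduf-11, 0.0566 and 0.699 at nduf-2.2, and 0.735 and 0.151 at atp-4.

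Complex I takes electrons from NADH. The summit for nduf-11 (complex I-B14.7) lay 193 bp upstream in intergenic DNA, in the region chrII:11345651-11345974, with a joint signal of 74.6 and replicate signals of 39.1 and 34.1. That for nduf-2.2 (complex I-49kD), with a joint signal of 65.9 and replicate signals of 32.1 and 29.0, lay 803 bp upstream, in the region chrIII:6464257-6464580. It was in an exon of the noncoding RNA T26A5.10, and the nearest protein-coding start was that of dlc-1, a dynein light chain gene, at 640 bp. That for nuo-3 (subunit 6 of the alpha subcomplex), with 65.2 jointly, 32.6 and 30.3, lay 685 bp upstream in the region chrIV:14798067-14798390, in a coding exon of arl-8 and 80 bp from the start of that gene. The signals of these 3 genes lay below those of cox-5A, cox-5B and cox-6A in both replicates. Only nuo-3 was in a replicate's own list, that of replicate 2.

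Complex V makes ATP. The atp-1 gene encodes its alpha subunit, and the summit, at chrI:12652112-12652435, lay 3 bp before its start with a joint signal of 88.0. Replicate 1 gave 55.0 and replicate 2 31.7, the largest ratio among the bound genes, 1.73. The region was in the list of replicate 1 and not of replicate 2. The atp-4 gene encodes coupling factor 6, and its summit lay 92 bp after its start in a coding exon, in the region chrV:6426858-6427181, with 56.4 jointly, 33.1 and 26.9. It was the weakest of the 10 sites and in neither replicate's list. The beta subunit gene atp-2 had a ranked summit 254 bp upstream with a signal of 8.86 and an IDR of 0.725.

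**Figure D2:**
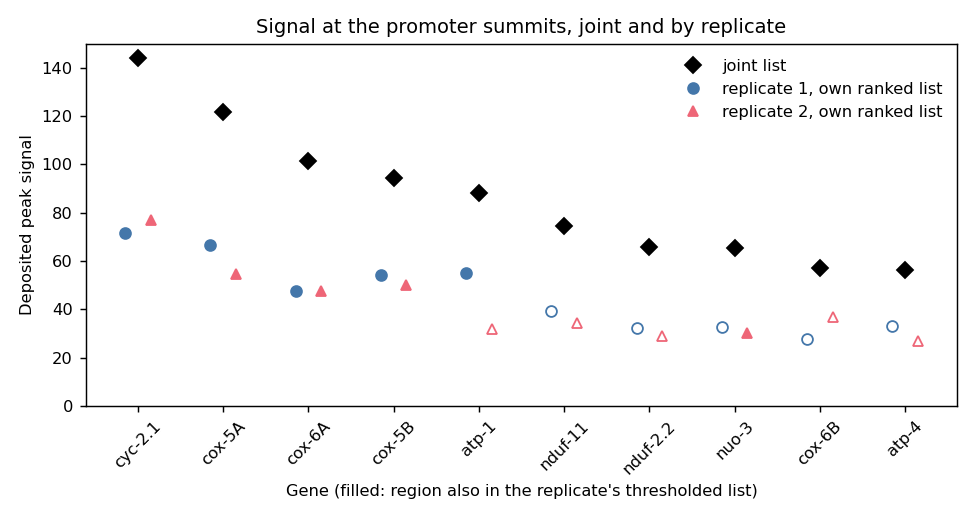
Deposited signal at the 10 bound sites. Diamonds are the joint list, circles replicate 1 and triangles replicate 2, filled where the region also stands in that replicate's thresholded list. Ratios of replicate 1 to replicate 2 range from 0.759 to 1.73, and 8 of 10 sites are higher in replicate 1.

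Each of the 10 sites had a ranked region in both replicates, with summits a median of 16.5 bp and at most 54 bp from the joint summit. The sites were drawn from a list made from both replicates, whose ranked lists hold 49110 and 44508 regions. Where several regions overlapped a site, the one with the nearest summit was taken. So this presence and closeness are no separate support for the sites. The median signal was 43.3 in replicate 1 and 35.4 in replicate 2. In the thresholded lists the sites were less complete. Counted with the list of replicate 1 alone, 6 members were bound (13.6%, background 2.84%), among them nduf-9, which is not among the 10. With that of replicate 2 alone 5 were bound (11.4%, background 2.52%). Of the 10 conservative sites, 4 were in both lists (40%) and 4 in neither (40%), where among 799 promoter summits 325 were in both (40.7%) and 263 in neither (32.9%). The members' shares were close to those of all promoter sites.

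The members that count as bound depended on the reproducibility asked. At an IDR of 0.001 or less 4 members were bound (9.09%, background 2.27%), the same 4 as in both replicates. With the joint ranked list at an IDR of 0.05 or less there were 11 (25%, background 7.05%), the added one being cox-16. Any summit of that ranked list gave 37 (84.1%), beside 61.4% of all genes. The other joint list gave 10 (22.7%, background 4.63%), with nduf-9 and ucr-11 in and nduf-2.2 and nuo-3 out. So 8 members were bound in both joint lists.

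**Figure D3:**
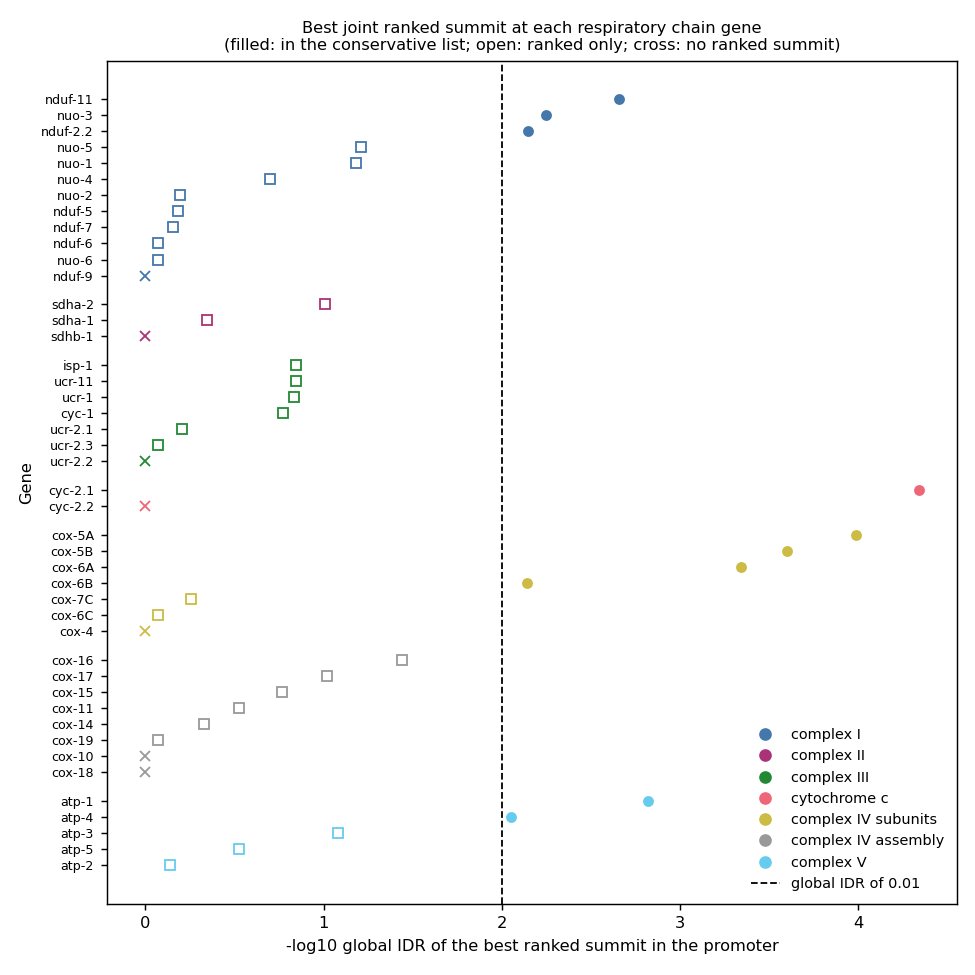
The -log10 of the lowest global IDR of a joint ranked summit in each member's promoter, by complex, so points farther right are better reproduced. The dashed line is an IDR of 0.01, and crosses mark the 7 members with no ranked summit. The 10 bound genes lie right of the line, nearest atp-4 at 0.00898, and the nearest gene left of it is cox-16 at 0.036.

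Unbound members came close in a few cases. The cox-16 gene, an assembly factor of complex IV, had a summit 362 bp upstream with a joint signal of 48.7, replicate signals of 32.9 and 21.5 and an IDR of 0.036. The nuo-5 gene (complex I, 75 kDa subunit) had 43.7 and an IDR of 0.061, nuo-1 (complex I flavoprotein) 31.0 and 0.0664, atp-3 (complex V, OSCP) 40.2 and 0.0833, and cox-17 15.9 and 0.0958. The best complex II and III values were 0.0981 for sdha-2 and 0.142 for isp-1, the Rieske iron-sulphur protein. In the joint ranked list 7 members had no summit at all in the promoter. One of these, nduf-9, had a summit 671 bp upstream with a signal of 98.4 in the other joint list, and 49.8 in replicate 1, but no summit there in replicate 2. So for nduf-9 the replicates differed, and it was not counted. The ucr-11 gene, a complex III subunit, had a summit 63 bp after its start with a signal of 45.3 and an IDR of 0.143 in the joint ranked list, and an IDR of 0.005 in the other, where it ranked 2098 of 2269 by signal among the thresholded regions.

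The rule places every counted summit between 1000 bp upstream and 200 bp downstream of a start, so distances are compared only within that window. The median summit was at -181.5 bp from the member's start, and at -238.0 bp over the 856 bound genes. Within 100 bp of the start were 4 of 10 (40%), where 202 of 856 were (23.6%). The signal range, 56.4 to 144.0 with a median of 81.3, lay within the range of all bound genes, whose median was 89.9. The difference between those medians was not tested.

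**Figure D4:**
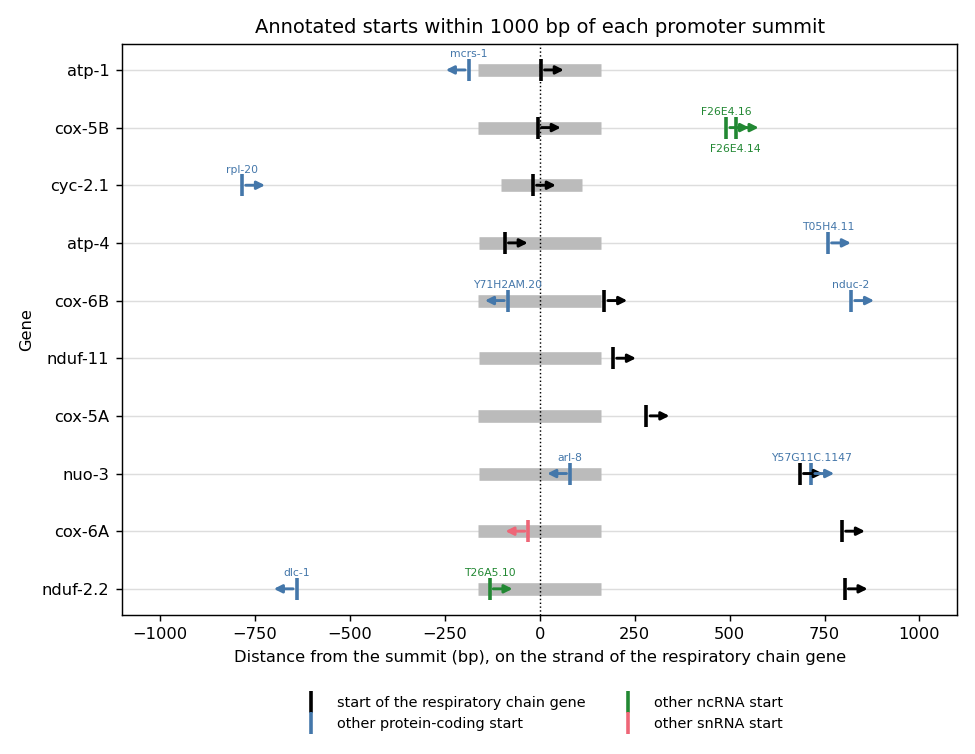
Annotated starts within 1000 bp of the 10 summits, as distance from the summit in bp on the strand of the member. Grey bars are the regions, arrows the direction of transcription, black the member's own start and colours other genes. At atp-1, cox-5B, cyc-2.1 and atp-4 the own start lies within 100 bp, and at cox-6A, nduf-2.2 and nuo-3 it lies farthest away.

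The base composition at the sites had a narrow dip. Over the 200 bp around the summit the median A+T was 55.0% for the members and 59.0% for all 799 promoter summits, against flanks, taken 500 bp to either side, of 63.2% and 62.2%. This 200 bp difference did not hold in the other joint list, whose 11 member summits, 2 of them at cox-6A, had a median of 63.5% against flanks of 61.0%. With the strongest summit of each member there it was 60% against 60.9%. In the central 50 bp the members had a median of 46.0%, against 67.5% at 150 bp to either side, and the centre was lower in 10 of 10. In the other joint list the centre was lower at 9 of the 11 summits, with medians of 46.0% and 66%. In all promoter summits the values were 52.0% and 66%, with a lower centre in 635 of 799 (79.5%). For comparison, the 50 bp around the starts of all genes had a median of 66%. The longest unbroken run of A and T in the 200 bp was 17 bases at cox-5A, 15 at atp-1 and 13 at nuo-3 and cox-6B, and shortest, 4 bases, at atp-4.

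**Figure D5:**
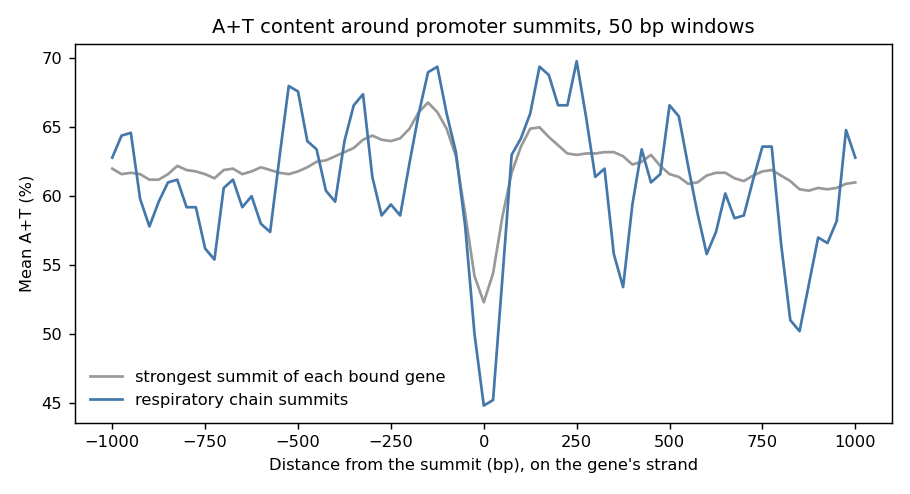
Mean A+T content in windows of 50 bp, in percent, against distance from the summit in bp on the strand of the gene, for the 10 member summits and for the strongest summit of each bound gene. At the summit the means are 44.8% for the members and 52.3% for all, and at 150 bp upstream 69.0% and 66.8%. With 10 sites the member line also varies widely elsewhere.

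The letters GCGC occurred in the 200 bp around 8 of the 10 member summits (80.0%), all but those of nuo-3 and cox-5A. Of the 799 promoter summits 396 held it (49.6%), of 1598 flanks 368 (23%), and of 19973 windows of 200 bp before gene starts 4055 (20.3%). Matches may overlap and were sought on both strands. They describe letters only. The difference in GCGC between members and other promoter summits was not tested.

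Among other mitochondrial genes, 2 of 70 ribosomal protein genes of the mitochondrial ribosome were bound (2.86%), where those of the cytosolic ribosome had 23 of 81 (28.4%). Of the TCA cycle and pyruvate dehydrogenase genes 1 of 23 was bound (4.35%), dld-1, with a signal of 665.7, which lies in the piRNA-rich region of chromosome IV where 27.4% of all genes were bound. Of carriers and import 1 of 19 was bound (5.26%), tomm-20, an import receptor. Of chaperones and related genes it was 1 of 16 (6.25%), hsp-60, whose summit lay 631 bp upstream. Of ubiquinone synthesis genes 1 of 9 was bound (11.1%), coq-3, in that same region. The 2 bound genes in the list of 13 further subunits were sdhd-1 (signal 64.6, 949 bp upstream), a succinate dehydrogenase subunit of complex II, and mai-1 (56.6). The mai-1 gene is annotated as a mitochondrial ATPase inhibitor, not as a subunit, and its summit lay 227 bp downstream of its nearest start. Assembly factors bound are bcs-1 (72.9, 94 bp from its start), which helps to insert the Rieske protein in yeast and human mitochondria, and coa-5 (61.4, 925 bp upstream). Of sdhd-1, mai-1, bcs-1 and coa-5 only bcs-1 was in the replicates' own lists. Bound genes with a summit of the same signal were car-1 (-96 bp) beside coa-5 and Y22D7AL.10 (-182 bp) beside hsp-60. Each share is set beside the 4.29% of all genes. No difference between lists was tested.

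Newer symbols for complex I genes (ndua-, ndub-, nduc-, ndus-, nduv- and ndab-) are outside the rule. This list was chosen after the values were seen. Of the 21 genes 4 were bound (19%): ndub-8 (129.9), ndab-2 (120.4), nduc-2 (81.7) and nduv-3 (63.2). Of them ndub-8 and ndab-2 were in the lists of both replicates. The nearest summits lay 184 bp upstream at ndub-8, 67 bp downstream at ndab-2, 55 bp downstream at nduc-2 and 186 bp upstream at nduv-3. Bound genes with a summit of the same signal were mdf-2 (1 bp) beside nduv-3 and cup-14 (-444 bp) beside ndub-8. With both sets together 7 of 33 complex I genes were bound (21.2%). Of 6 genes that share a RefSeq product name with a member, 1 was bound, F36A2.7, annotated as cytochrome c oxidase subunit 4, with a signal of 66.9.

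By chromosome, 2 of 14 members were bound on I, 1 of 5 on II, 4 of 11 on III, 2 of 6 on IV, 1 of 5 on V and 0 of 3 on X. Over all genes the shares were 4.66%, 3.45%, 4.32%, 9.36%, 3.02% and 1.14%. The nuo-3 gene is the 1 member in the piRNA-rich region IV:13500001-17250000, where 127 of 464 genes were bound (27.4%). Outside that region 9 of 43 members were bound. The share of all genes outside it was not counted apart. It is below 4.29%, the share inside and outside together, since 27.4% of genes were bound inside.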

How the data were processed

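ATTF-6 ChIP-seq was deposited as 8 peak lists on ce11 for 2 replicates of 1 group, per the labels. The authors made ranked and thresholded lists for each replicate and for both jointly, per the deposited notes. For the aligner, peak caller and signal scale, names were not given in the sources used here. Each deposited score is a whole number scaled from the IDR, and the deposited signal is the value of each region. On a −log10 scale the authors deposited a q value and, in ranked lists, local and global IDR values. The 32 further columns of per-replicate values in the 4 ranked lists were not used.

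Summits were counted from 1. Gene models were Ensembl release 115, and gene products RefSeq, which named all 44 members. Scripts ran in Python 3.11.15 with numpy 2.4.6 and matplotlib 3.10.9, and the counting was tested on simulated data. The series has 1 group of 2 replicates, and the members and lists were chosen with earlier results of these data known. For these reasons no test was run and no p-value is given. Counts stand beside the share over all genes where that share was counted. Named genes were every bound member, the unbound members closest to the threshold, the bound genes of each other list except the ribosomal protein genes, which were only counted, and the gene with the start nearest a bound summit. Any other gene was named after its values were seen. Of the list symbols 5 were not found in the annotation. Alternatives were the IDR level, the other joint list, the promoter width, the summit rule, the start of the longest transcript, the window for A+T and each replicate alone. The sequences at 5 bound sites are not reported here.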

Additional observations from a re-analysis of the deposited data

How the results depend on the processing

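The count of 10 bound members was 4 at an IDR of 0.001 or less. It ranged from 5 to 6 when the list of a single replicate was used, 5 without replicate 1 and 6, with nduf-9 among them, without replicate 2. It was 10 with the other joint list and with any overlap of region and promoter, 7 with 500 bp upstream and 13 with 2000 bp upstream. It was 7 with nearest starts only and 9 without summits near short RNA genes. For the changed promoter widths, overlap, nearest starts and short RNA genes the share of all genes was not counted, so these counts have no background. With the newer complex I symbols, an alternative chosen after seeing the data, it was 14 of 65. The 4 bound members with a region in both replicates became 10 when the ranked lists, which hold regions of any reproducibility, were used. The median signal of 81.3 became 111.4 at an IDR of 0.001 or less and 91.2 in the other joint list. The median distance of -181.5 bp became -86.5 bp in the other joint list and -98.0 bp with the start of the longest transcript, and ranged from -280.0 to -155.0 bp with a single replicate. The median A+T of 55.0% became 47.0% in 100 bp, 60.8% in 300 bp and 63.5% in the other joint list, where cox-6A has 2 summits, or 60% with the strongest summit of each member, a setting also chosen after seeing the data, and ranged from 56.0 to 57.0% with a single replicate. The cause was not tested. No paired analysis was possible because the series has 1 group. Depth is unknown, so a member without a region is not shown to be unbound.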

Other observations

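The nuo-3 gene lies in the piRNA-rich part of chromosome IV, and 4 summits of the conservative list fell within 1000 bp of the gene, with signals of 65.2, 101.9, 137.7 and 94.8. The 3 stronger ones lay downstream of its start, by 1189, 484 and 283 bp, the first of these past the gene's end. In the promoter of coq-3, a ubiquinone synthesis gene, lie 3 summits. The promoter rule thus counts nuo-3 only through the weakest of the 4. Past the end of the cox-5A gene lay further summits, 1196 and 1396 bp after its start, with signals of 83.2 and 3.41. The atp-1 gene held a summit 1150 bp after its start, with 65.9. Another lay past its end, 2411 bp after the start, with 98.5, above the 88.0 of its promoter summit. A summit 705 bp after a cox-6B start and past the gene's end, with 81.7, was also stronger than the one counted for cox-6B, with 57.2. That stronger summit is the one in the promoter of nduc-2.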
